A study of Mus musculus with 9 samples.

Results

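The surface proteins CD22, CD72 and CD24 sit on B lineage cells and tune signals from the B cell receptor and its surroundings. Their genes Cd22, Cd72 and Cd24a were followed in cultured mouse cells of 3 knockout lines. Every probe set whose accession or description in the authors' deposited tables named 1 of these genes was taken, which gave these 3 of 9918 named genes and 6 of the 45101 probe sets on the array: 3 for Cd22, 1 for Cd72 and 2 for Cd24a. All 6 passed the filter on low signals. EBFko cells lack EBF and are labelled lymphoid specified, Pax5ko cells lack Pax5 and are labelled B lineage specified, and RAG2ko cells lack RAG2 and are labelled B lineage committed. Each line had 3 samples with 1 Affymetrix mouse expression array each. All lines received IL-7, and the EBFko and Pax5ko cultures were given Flt3 ligand as well, so the medium and the genotype cannot be told apart in any comparison with RAG2ko. No sample received a treatment. The labels do not say whether a line is 1 clone or whether its 3 samples came from separate cultures. The p-values here therefore set each difference only against the spread between these samples within lines, estimated over all 9 arrays.

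CD22 is a lectin of the Siglec family that binds sialic acid on neighbouring proteins. Once the kinase LYN has phosphorylated its cytoplasmic tail, it recruits the phosphatase SHP-1 and dampens signals of the B cell receptor. CD72, a C-type lectin-like protein that binds the semaphorin CD100, also carries inhibitory motifs that recruit SHP-1, whereas CD24, the heat stable antigen, is a small, heavily glycosylated protein held in the membrane by a lipid anchor and abundant on immature B cells.

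The promoters of Cd22 and Cd72 are shown because both genes encode SHP-1 recruiting receptors but differed in their pattern over the lines. Each runs from 250 bases before to 50 bases after the start of the gene, from a table of RefSeq promoters on GRCm38.p6 in which 2 of the 3 genes were matched. The promoter of Cd24a was not used here. The Cd72 window lies on the minus strand at chr4:43454577-43454876 and the Cd22 window on the minus strand at chr7:30878979-30879278. Capitals mark matches, on either strand, to 4 short motifs of B lineage factors: EBF1 (CCCNNGGG), PU.1 (GAGGAA), Ikaros (TGGGAA) and E2A (CAGNTG), none of which overlapped another here.
Cd72: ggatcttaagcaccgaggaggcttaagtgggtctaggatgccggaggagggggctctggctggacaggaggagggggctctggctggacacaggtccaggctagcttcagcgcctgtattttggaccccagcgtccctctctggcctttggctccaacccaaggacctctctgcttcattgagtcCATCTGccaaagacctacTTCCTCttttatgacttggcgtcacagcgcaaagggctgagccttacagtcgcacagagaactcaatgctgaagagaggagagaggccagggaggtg
Cd22: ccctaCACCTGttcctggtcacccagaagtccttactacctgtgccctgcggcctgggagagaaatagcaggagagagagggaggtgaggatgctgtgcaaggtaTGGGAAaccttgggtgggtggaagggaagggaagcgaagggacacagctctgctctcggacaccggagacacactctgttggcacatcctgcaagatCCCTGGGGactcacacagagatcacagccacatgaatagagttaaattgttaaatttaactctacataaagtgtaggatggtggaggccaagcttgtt
The Cd72 window held 1 PU.1 match and 1 E2A match, and the Cd22 window held 1 match each to EBF1, Ikaros and E2A. Of 32851 promoter windows of the same length, 13.7% held the EBF1 letters, 28.3% those of PU.1, 25.6% those of Ikaros and 51.4% those of E2A, so each of these matches is common and describes the letters only.

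Levels are log2 signals after quantile normalization of the 9 arrays, given per line as mean ± SD (n = 3), and differences are log2 differences ± SE from limma, with p-values adjusted by Benjamini-Hochberg over the 40928 probe sets tested and with a threshold of 0.05 for a call. A log2 signal under 6, which is a signal under 64, is called dim here, and 40.9% to 47.2% of the deposited signals on an array lay under 64. The B lineage markers were read first: the mean log2 signal of 9 of them was 6.18 to 7.40 on the EBFko arrays, 10.78 to 11.03 on the Pax5ko arrays and 12.49 to 13.38 on the RAG2ko arrays. Of these markers 4 were dim in EBFko, namely Vpreb1 (3.70), Pou2af1 (3.98), Cd79a (5.26) and Cd79b (5.58). Not every marker followed the order of the means: from EBFko to Pax5ko 6 of the 9 were called up and 1, Blnk, down. Blnk averaged 8.97 in EBFko, 5.18 in Pax5ko and 13.85 in RAG2ko. Rag1 averaged 8.77, 10.44 and 8.73 in the same order, and Ebf1, itself on the list, 10.87, 9.98 and 12.01. The targeted genes could not check the genotypes. The 3 Ebf1 probe sets were bright on arrays of every line, with means of 9.53 to 11.00 in EBFko, the Pax5 probe set averaged 3.94 ± 1.52 in Pax5ko and passed in no comparison, and Rag2 was 5.96, 5.60 and 9.10 on the RAG2ko arrays. The sources used here do not give which part of each gene was deleted, and a probe set may lie outside it.

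RAG2ko replicate 3, the array with the high Rag2 signal, also carried stromal transcripts that the other RAG2ko arrays had at low levels. The mean log2 signal of 18 stromal markers was 8.99 on it, against 5.80 and 6.49 on RAG2ko replicates 1 and 2, 8.13 to 9.81 on the EBFko arrays and 8.21 to 10.02 on the Pax5ko arrays. In all 3 lines replicate 3 was the array with the highest stromal signal. Values without the 3 arrays numbered 3, a setting chosen after seeing the data, are therefore given beside the results. On RAG2ko replicate 3 the mean of the 9 B lineage markers was also the highest of its line, 13.38 against 12.57 and 12.49. Its Rag1 signal was 10.75, against 8.03 and 7.41 on RAG2ko replicates 1 and 2. Of 8 myeloid markers, 6 had a log2 signal above 6 in EBFko, 4 in Pax5ko and 3 in RAG2ko. The mean of 8 T and NK markers was 6.64 to 7.22 on the arrays of EBFko, 4.68 to 5.80 on those of Pax5ko and 5.06 to 6.43 on those of RAG2ko. The mean of 6 erythroid markers stayed between 4.96 and 5.97 on every array. Which cells gave these marker signals, and their part in the results on Cd22, Cd72 and Cd24a, was not tested.

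Cd72 was bright in EBFko, dim in Pax5ko and bright again in RAG2ko. The log2 signals were 10.51, 10.56 and 10.81 on the EBFko arrays, 4.98, 5.44 and 6.54 on the Pax5ko arrays and 9.43, 9.83 and 10.32 on the RAG2ko arrays. The lines did not overlap, and the Pax5ko arrays stood far under the rest. In the deposited signals the same arrays read 1438.8, 1513.7 and 1828.2, then 27.9, 40.8 and 91.5, then 634.8, 864.2 and 1281.8. Fewer Cd72-expressing cells and less Cd72 RNA per cell cannot be told apart in RNA from whole cultures.

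Against EBFko (10.63 ± 0.16), Cd72 fell by 4.98 ± 0.41 in Pax5ko (5.65 ± 0.80), a 31.5-fold lower signal (limma, adjusted p = 0.00103). It rose by 4.21 ± 0.41 from Pax5ko to RAG2ko (9.86 ± 0.45), or 18.5-fold (limma, adjusted p = 0.00137). Since the Pax5ko mean was dim, these sizes rest on dim signal, and raising signals under 64 to 64 gave -4.45 and 3.68. The authors' deposited ratios, which have no replicates and an unstated reference, put Cd72 at 2.785 in EBFko, 0.0339 in Pax5ko and 1.234 in RAG2ko. Both calls held in 21 of 21 alternative fits, with adjusted p of at most 0.0151 and 0.0121. The differences were -5.28 and 4.37 without the arrays numbered 3.

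RAG2ko and EBFko were not shown to differ in Cd72. The RAG2ko mean was lower by 0.77 ± 0.41, with a 95% interval of -1.73 to 0.20 for the difference (limma, adjusted p = 0.288), although the highest RAG2ko array (10.32) stayed under the lowest EBFko array (10.51). The interval leaves room for a RAG2ko level from clearly lower to slightly higher. In each line Cd72 was highest on replicate 3, the array with the most stromal signal, and whether these go together was not tested.

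**Figure D1:**
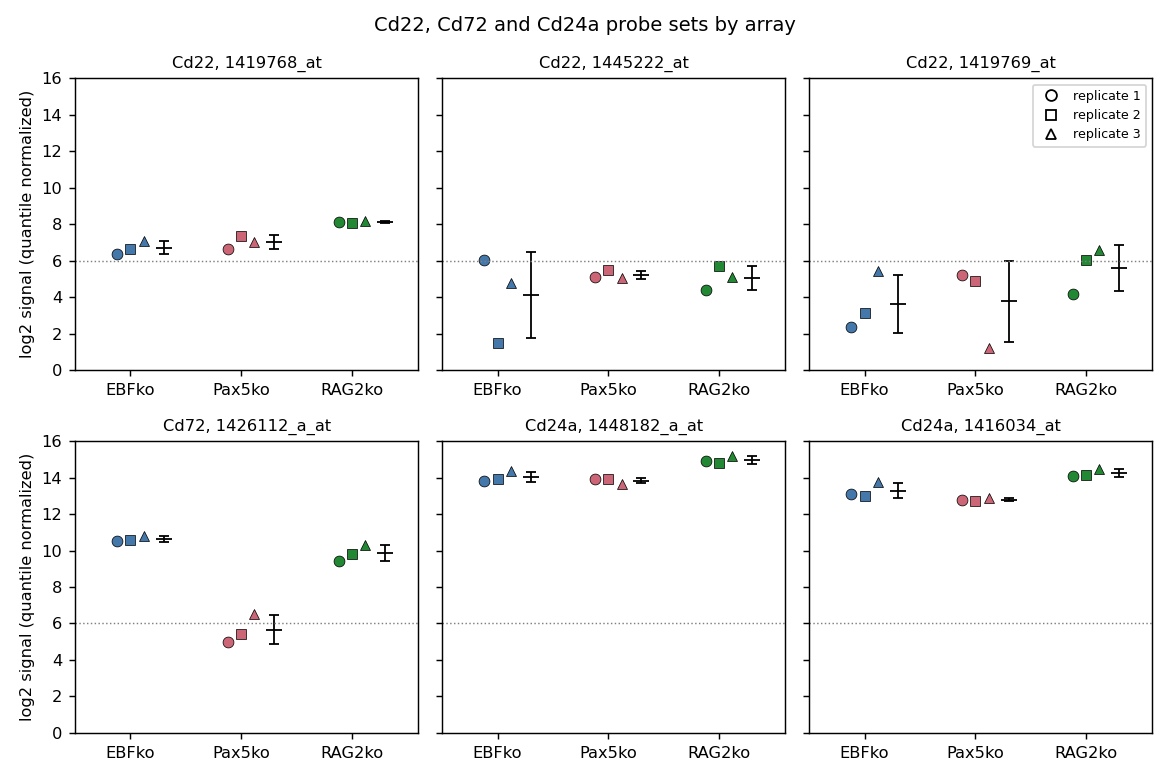
Log2 signal (quantile normalized) of the 6 probe sets of Cd22, Cd72 and Cd24a by line, 1 point per array with the replicate number as its shape, and the mean ± SD of 3 arrays beside each group. The dotted line marks a log2 signal of 6. Cd72 drops to a mean of 5.65 in Pax5ko, whereas Cd24a lies above 12 on every array and the lower-signal Cd22 probe sets scatter under and around 6.

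Cd22 was higher in RAG2ko than in EBFko and Pax5ko, and the latter lines were not shown to differ. On the probe set with the highest mean, 1419768_at, the log2 signals were 6.38, 6.67 and 7.09 in EBFko, 6.63, 7.38 and 7.04 in Pax5ko and 8.11, 8.07 and 8.19 in RAG2ko. EBFko and Pax5ko overlapped, and every RAG2ko array lay above both. The deposited signals of this probe set were modest in all lines, 100.8 to 140.8 in EBFko, 90.7 to 178.1 in Pax5ko and 234.0 to 279.1 in RAG2ko.

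Cd22 rose by 1.41 ± 0.25 from EBFko (6.72 ± 0.36) to RAG2ko (8.12 ± 0.06), a 2.65-fold higher signal (limma, adjusted p = 0.0119). It rose by 1.11 ± 0.25, or 2.16-fold, from Pax5ko (7.02 ± 0.38) to RAG2ko (limma, adjusted p = 0.0351). Pax5ko and EBFko differed by 0.30 ± 0.25, with a 95% interval of -0.29 to 0.89 (limma, adjusted p = 0.620). The rise over EBFko held in 20 of 21 alternative fits and was lost without the arrays numbered 3 (1.54, limma adjusted p = 0.0643). The rise over Pax5ko held in only 10 of 21. It was lost without quantile normalization (0.94, limma adjusted p = 0.0757) and with median centring (0.93, limma adjusted p = 0.108). It was also lost without any 1 of EBFko replicate 2, Pax5ko replicates 1 and 3 and RAG2ko replicates 1, 2 and 3 (differences of 0.91 to 1.14, limma adjusted p of 0.0578 to 0.0965). Its adjusted p ranged up to 0.138, the value without the arrays numbered 3 (1.07).

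The other Cd22 probe sets were too dim to read the gene's pattern. Probe set 1419769_at gave 2.37, 3.13 and 5.42 in EBFko, 5.22, 4.91 and 1.23 in Pax5ko and 4.18, 6.07 and 6.59 in RAG2ko. All lines overlapped, and its differences of 0.15 between Pax5ko and EBFko, 1.82 between RAG2ko and Pax5ko and 1.97 between RAG2ko and EBFko, each ± 1.28, did not pass (limma, adjusted p = 0.973, 0.426 and 0.379). Probe set 1445222_at, assigned to Cd22 by its description alone, gave 6.06, 1.47 and 4.80, then 5.11, 5.47 and 5.05, then 4.39, 5.69 and 5.11. All lines overlapped here too, with differences of 1.10, -0.15 and 0.95, each ± 1.06, in the same order (limma, adjusted p = 0.673, 0.950 and 0.624).

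Cd24a was bright in every line and highest in RAG2ko. Probe set 1448182_a_at read 13.83, 13.90 and 14.35 in EBFko, 13.92, 13.90 and 13.67 in Pax5ko and 14.89, 14.79 and 15.19 in RAG2ko. Probe set 1416034_at read 13.11, 12.99 and 13.74, then 12.79, 12.70 and 12.89, then 14.10, 14.14 and 14.48. On both probe sets every RAG2ko array lay above every array of the other lines. In deposited signal 1448182_a_at read 13970.4 to 17742.0 in EBFko, 12408.9 to 15169.0 in Pax5ko and 33405.8 to 38774.3 in RAG2ko. The mouse genome holds near-identical copies of Cd24a, and whether these probes read them as well is not given in the sources used here.

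From Pax5ko to RAG2ko, Cd24a rose by 1.12 ± 0.20 on 1448182_a_at (13.83 ± 0.14 to 14.96 ± 0.20) and by 1.44 ± 0.23 on 1416034_at (12.79 ± 0.10 to 14.24 ± 0.21), that is 2.18-fold and 2.72-fold (limma, adjusted p = 0.0136 and 0.00927). From EBFko to RAG2ko the rises were 0.93 ± 0.20 (from 14.03 ± 0.28) and 0.96 ± 0.23 (from 13.28 ± 0.40), that is 1.90-fold and 1.94-fold (limma, adjusted p = 0.0236 and 0.0363). Between Pax5ko and EBFko the differences were -0.19 ± 0.20 with a 95% interval of -0.66 to 0.27, and -0.49 ± 0.23 with an interval of -1.03 to 0.05 (limma, adjusted p = 0.697 and 0.332), the former turning to 0.02 with median centring. On 1416034_at the Pax5ko arrays were all lower than the EBFko arrays, while on 1448182_a_at these lines overlapped. Over the 9 arrays the log2 signals of the probe sets correlated at r = 0.962, which describes probe sets assigned to 1 gene and read in the same samples.

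The Cd24a rise from Pax5ko to RAG2ko on 1416034_at held in all 20 alternative fits that tested it, with an adjusted p of at most 0.0366. On 1448182_a_at it held in 19 of 21 and was lost without Pax5ko replicate 3 (1.05, limma adjusted p = 0.0535) and without the arrays numbered 3 (0.94, limma adjusted p = 0.0524). The rises over EBFko were less firm, held in 16 of 21 and 11 of 20. That of 1448182_a_at was lost without EBFko replicate 1 (0.84), EBFko replicate 2 (0.87) or RAG2ko replicate 1 (0.96), with limma adjusted p of up to 0.0791. That of 1416034_at was lost without any single array other than EBFko replicate 3, with limma adjusted p of up to 0.115.

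**Figure D2:**
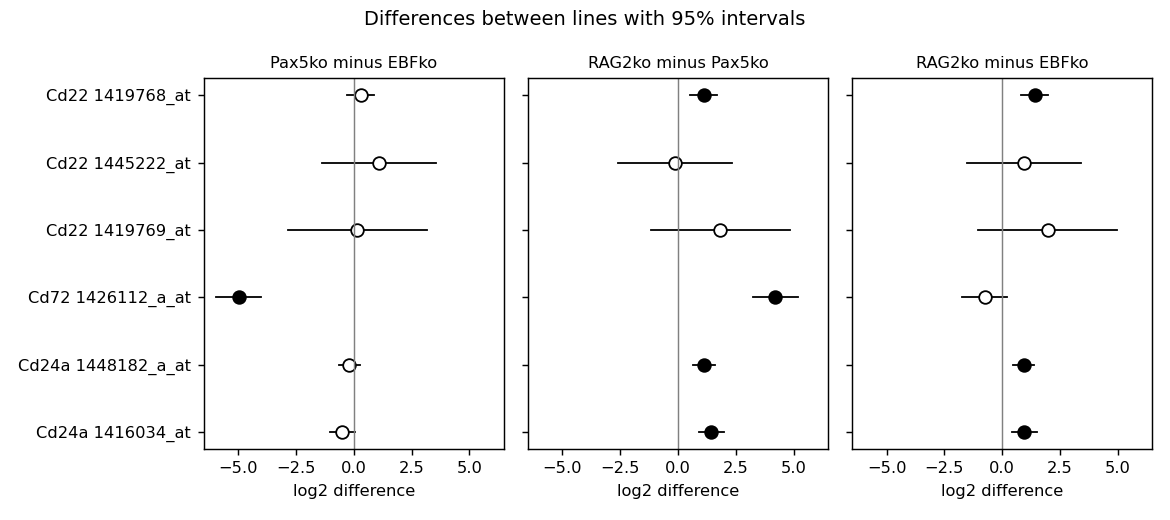
Log2 differences between lines (points) with 95% intervals (lines) for the 6 probe sets, filled where the limma adjusted p is under 0.05. In RAG2ko minus Pax5ko 4 of the 6 points are filled, all to the right of 0, while in Pax5ko minus EBFko the only filled point is Cd72 at -4.98.

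Counted over the 6 probe sets, 0 rose and 1 fell from EBFko to Pax5ko, where 2.64% of the 40928 probe sets rose and 2.58% fell, 5.22% in all. The groups did not overlap for 2 of the 6, against 29.0% of all probe sets. From Pax5ko to RAG2ko 4 rose and 0 fell, against 4.98% and 4.94% of all (9.92% together), with 4 of 6 not overlapping against 32.6%. From EBFko to RAG2ko 3 rose and 0 fell, against 6.41% and 6.23% of all (12.6% together), with 4 of 6 not overlapping against 33.4%. The median differences in these comparisons were -0.02, 1.28 and 0.95 for these probe sets and -0.01, 0.07 and 0.06 for all. At an unadjusted p under 0.05 limma gave the same counts: 0 rises and 1 fall, 4 rises and 0 falls, and 3 rises and 0 falls. The shares of all probe sets above are for adjusted p and are no background for these unadjusted counts. No such share is given here, nor for the unadjusted counts of the lists below. Since the 6 probe sets read 3 genes and the comparisons share arrays, these counts describe the set and carry no test. Without the arrays numbered 3, the counts were 1 fall, 2 rises and 2 rises in the same order. The 4 rises from Pax5ko to RAG2ko became 2 without Pax5ko replicate 3. The 3 rises from EBFko to RAG2ko became 1 without EBFko replicate 1, EBFko replicate 2 or RAG2ko replicate 1.

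Among the receptor-proximal genes around these coreceptors, both rises and falls were called. Of 21 genes for the kinases, adaptors and phosphatases at the B cell receptor, 3 rose and 5 fell from EBFko to Pax5ko, 2 rose and 3 fell from Pax5ko to RAG2ko, and 6 rose and 6 fell from EBFko to RAG2ko, with median differences of 0.04, 0.01 and -0.22. In a fit with 1 probe set per gene, 477 of 9335 genes rose and 522 fell from EBFko to Pax5ko. From Pax5ko to RAG2ko these numbers were 919 and 761, and from EBFko to RAG2ko 1057 and 993. They are the background for the later lists too, and no list was tested against them. The list counts come from the main fit, adjusted over 40928 probe sets, and this background from a separate fit adjusted over 9335, so their thresholds differ. Without the arrays numbered 3 the list counts were 3 and 1, 2 and 1, and 3 and 5. The 5 falls from EBFko to Pax5ko became 2 or 3 without any single array but RAG2ko replicate 3, and the 3 rises became 5 without that one. Ptpn6, which encodes the SHP-1 that CD22 and CD72 recruit, read 11.93, 12.13 and 12.13 in EBFko, 11.12, 11.12 and 11.01 in Pax5ko and 10.75, 10.53 and 10.38 in RAG2ko. It was highest in EBFko with no overlap between lines, and fell by 1.51 ± 0.16 from EBFko to RAG2ko (limma, adjusted p = 0.00113) in all 21 alternative fits.

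From EBFko to Pax5ko Ptpn6 fell by 0.98 ± 0.16 (limma, adjusted p = 0.0140), a call held in 15 of 21 fits and lost without EBFko replicate 2, Pax5ko replicate 1 or Pax5ko replicate 3 (limma adjusted p of 0.0550 to 0.0588), with median centring (0.121) and without the arrays numbered 3 (0.113). Lyn, the kinase that phosphorylates CD22, read 11.74, 11.55 and 11.55 in EBFko, 10.28, 10.29 and 10.11 in Pax5ko and 10.30, 10.06 and 10.36 in RAG2ko. It was highest on the EBFko arrays, with no overlap, and fell by 1.38 ± 0.15 to Pax5ko and by 1.37 ± 0.15 to RAG2ko (limma, adjusted p = 0.00341 and 0.00159), the former lost without the arrays numbered 3 (adjusted p = 0.0573). The receptor chain genes Cd79a and Cd79b went the other way, rising by 4.32 ± 0.27 and 6.62 ± 0.48 from EBFko to Pax5ko (limma, adjusted p = 3.31e-04 and 6.04e-04). Blnk, an adaptor downstream of the receptor, was lower in Pax5ko than in both other lines: it fell by 3.80 ± 0.49 from EBFko and rose by 8.68 ± 0.49 to RAG2ko (limma, adjusted p = 0.00655 and 1.27e-04). Blk, a kinase of the same family as LYN, was higher in Pax5ko by 4.62 ± 0.26 than in EBFko and lower in RAG2ko by 3.44 ± 0.26 than in Pax5ko (limma, adjusted p = 1.99e-04 and 4.33e-04). Cd79a, Cd79b and Blk were dim in EBFko and Blnk in Pax5ko, and raising signals under 64 to 64 gave rises of 3.58, 5.97 and 4.17 for the former, and -2.97 and 7.85 for Blnk.

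Cd79a, Cd79b and Blnk rose from EBFko to RAG2ko by 8.18, 6.97 and 4.88 (limma, adjusted p = 1.6e-05, 1.93e-04 and 0.00106). Cbl, a ubiquitin ligase that limits receptor signals, was lower in RAG2ko than in Pax5ko by 1.35 ± 0.24 and than in EBFko by 1.18 ± 0.24 (limma, adjusted p = 0.0131 and 0.0184). Both Cbl calls were lost without the arrays numbered 3 (limma adjusted p = 0.0845 and 0.0900), and the latter also without EBFko replicate 1 or 2 or RAG2ko replicate 1 or 2 (0.0558 to 0.0643). Plcg2, the phospholipase that BLNK brings to the receptor, fell by 0.63 ± 0.16 from Pax5ko to RAG2ko (limma, adjusted p = 0.0476), a call held in 5 of 21 fits and lost without any single array (limma adjusted p of 0.0575 to 0.126).

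Ligands of the coreceptors and enzymes of sialic acid ligands were read for 10 of 12 listed genes. From EBFko to Pax5ko 1 rose and 0 fell, and from Pax5ko and from EBFko to RAG2ko 2 rose and 2 fell, with medians of 0.07, -0.20 and -0.25. At an unadjusted p under 0.05 limma also gave 0 falls in the first of these. Without the arrays numbered 3 the counts were 1 and 0, 1 and 2, and 1 and 1. The rises also depended on single arrays: the 1 from EBFko to Pax5ko became 0 without any 1 of the Pax5ko arrays, the 2 from Pax5ko to RAG2ko became 0 without any 1 of the Pax5ko or RAG2ko arrays and 1 without EBFko replicate 1 or 2, and the 2 from EBFko to RAG2ko became 1 without any but EBFko replicate 3 or Pax5ko replicate 2. The 2 falls from Pax5ko to RAG2ko became 1 without RAG2ko replicate 1. Sema4d, which encodes the CD72 ligand CD100, read 11.81, 11.98 and 12.05 in EBFko, 11.75, 12.30 and 11.86 in Pax5ko and 10.85, 10.99 and 10.98 in RAG2ko. The RAG2ko arrays were all lower, by 1.03 ± 0.18 than Pax5ko and by 1.01 ± 0.18 than EBFko (limma, adjusted p = 0.0144 and 0.0130), calls lost without the arrays numbered 3 and, for the former, without RAG2ko replicate 1 (limma adjusted p of up to 0.0957 and 0.101). Siglecg, whose product is a Siglec known to bind CD24 in mouse, read 7.05, 6.48 and 7.71, then 7.02, 6.48 and 7.01, then 8.39, 8.28 and 8.62.

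The Siglecg signal of RAG2ko lay above both other lines, by 1.59 ± 0.32 over Pax5ko and 1.35 ± 0.32 over EBFko (limma, adjusted p = 0.0236 and 0.0355). These calls held in 13 and 10 of 21 fits, with limma adjusted p of up to 0.0740 and 0.0976: the former was lost without any 1 of the Pax5ko or RAG2ko arrays, the latter without any 1 of EBFko replicates 1 and 2, Pax5ko replicates 1 and 3 and the RAG2ko arrays. Cmah, the hydroxylase that makes the sialic acid form preferred by mouse CD22, read 9.90, 10.05 and 9.39 in EBFko, 10.04, 10.13 and 9.93 in Pax5ko and 5.33, 5.37 and 7.69 in RAG2ko. It was lower in RAG2ko with no overlap, by 3.91 ± 0.61 against Pax5ko and 3.65 ± 0.61 against EBFko (limma, adjusted p = 0.00826 and 0.00882), in all 21 fits. Its highest RAG2ko signal was on replicate 3. Of its 5 probe sets, 1 differed the other way against Pax5ko and 2 against EBFko, none of them called.

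St3gal6, a sialyltransferase, rose from EBFko to Pax5ko by 2.27 ± 0.36 and from EBFko to RAG2ko by 3.78 ± 0.36 (limma, adjusted p = 0.0138 and 8.27e-04). The former was lost without any 1 of the Pax5ko arrays (limma adjusted p of 0.0516 to 0.0543). Its difference of 1.51 ± 0.36 between RAG2ko and Pax5ko passed with an adjusted p of 0.0403 by limma, held in 11 of 21 fits and was lost without any single array but EBFko replicate 3 (limma adjusted p of up to 0.105). St6gal1, which makes the sialic acid linkage that CD22 binds and is named here after its values were seen, read 11.04, 10.88 and 6.95 in EBFko, 11.91, 11.73 and 11.88 in Pax5ko and 10.71, 10.49 and 11.72 in RAG2ko. EBFko replicate 3 stood apart from the rest, and no comparison passed with all arrays (limma, adjusted p = 0.320, 0.651 and 0.456 in the same order of comparisons). St6gal1 fell by 1.23 from Pax5ko to RAG2ko without the arrays numbered 3 (limma, adjusted p = 0.0461), and there its difference between RAG2ko and EBFko turned from 1.35 to -0.36 (limma, adjusted p = 0.308).

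Other surface proteins of B lineage cells moved in both directions. Of 32 genes, 2 rose and 5 fell from EBFko to Pax5ko, 8 rose and 3 fell from Pax5ko to RAG2ko, and 7 rose and 6 fell from EBFko to RAG2ko, with medians of -0.27, 0.36 and 0.03. Without the arrays numbered 3, which left 31 genes tested, the counts were 1 and 4, 9 and 3, and 9 and 4. From EBFko to Pax5ko the falls became 2 or 3 without EBFko replicate 1 or 2 or any 1 of the Pax5ko arrays, and the rises became 1 without EBFko replicate 1 or Pax5ko replicate 1 or 2 and 5 without RAG2ko replicate 3. From Pax5ko to RAG2ko the rises became 5 without any 1 of the Pax5ko arrays or RAG2ko replicate 1 or 2. From EBFko to RAG2ko the rises became 4 without EBFko replicate 1 or 2, and the falls 3 without any 1 of the EBFko arrays. Fcgr2b, the inhibitory Fc receptor of B cells, read 9.79, 9.79 and 11.12 in EBFko, 5.81, 6.02 and 5.87 in Pax5ko and 9.60, 9.56 and 9.18 in RAG2ko. It was low on the Pax5ko arrays alone: it fell by 4.33 ± 0.36 from EBFko and rose by 3.55 ± 0.36 to RAG2ko (limma, adjusted p = 0.00106 and 0.00161). Cd52, a small lipid-anchored protein like CD24, read 11.01, 11.14 and 12.12, then 9.25, 9.08 and 9.08, then 12.52, 12.48 and 12.53.

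Cd52 was lowest in Pax5ko without overlap: it fell by 2.29 ± 0.29 from EBFko and rose by 3.37 ± 0.29 to RAG2ko (limma, adjusted p = 0.00593 and 7.50e-04). Calls on Fcgr2b and Cd52 in these comparisons held in all 21 fits; their rises to RAG2ko are named after their values were seen. Enpep, the aminopeptidase BP-1 of pre-B cells, and Bst1, the BP-3 antigen, rose from Pax5ko to RAG2ko by 11.28 ± 1.19 and 5.46 ± 0.65 (limma, adjusted p = 0.00181 and 0.00282). Both were dim in Pax5ko, and with signals under 64 raised to 64 the rises were 7.91 and 4.96. Pirb, an inhibitory receptor of myeloid and B cells, fell by 4.73 ± 0.97 from EBFko to Pax5ko and by 4.96 ± 0.97 from EBFko to RAG2ko (limma, adjusted p = 0.0366 and 0.0168), and was dim in both of those lines. Raising signals under 64 to 64 gave -1.89 in both comparisons, and the calls, which held in 13 and 16 of 21 fits, were each lost without any 1 of the EBFko arrays or RAG2ko replicate 1, and the former also without Pax5ko replicate 2 or 3 (limma adjusted p of 0.0624 to 0.116 and 0.0504 to 0.0548). Both were lost as well without the arrays numbered 3 (-4.34 and -4.05, limma adjusted p = 0.207 and 0.137). Cd9, a tetraspanin, fell by 5.95 ± 1.22 from EBFko to RAG2ko (limma, adjusted p = 0.0197) and read 3.14, 4.65 and 8.31 on the RAG2ko arrays, the last of which had the high stromal signal. Cd9 was dim in RAG2ko, with a difference of -4.55 once signals under 64 were raised to 64. That call was lost without any 1 of the EBFko arrays or RAG2ko replicate 2 (limma adjusted p of up to 0.0677).

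Cd2, an adhesion receptor, rose by 6.14 ± 1.41 from Pax5ko, where it was dim, to RAG2ko (limma, adjusted p = 0.0356). The call was lost, at 2.59, with signals under 64 raised to 64, and without EBFko replicate 1, any 1 of the Pax5ko arrays or RAG2ko replicate 1 or 2 (limma adjusted p of 0.0532 to 0.104). Cr2, the complement receptor CD21, rose by 3.30 ± 0.80 from EBFko, where it was dim, to RAG2ko (limma, adjusted p = 0.0365). It held in 8 of 20 fits, was 1.17 with signals raised to 64 and was lost without any single array but RAG2ko replicate 3 (limma adjusted p of 0.0533 to 0.110). Cd86, a costimulatory ligand, fell by 5.20 ± 0.73 from EBFko to RAG2ko (limma, adjusted p = 0.00447), where it was dim. That difference was -1.57 with signals raised to 64, and the call was lost without the arrays numbered 3 (limma adjusted p = 0.0651).

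Enpep and Bst1 rose by 10.14 and 5.62 from EBFko to RAG2ko as well (limma, adjusted p = 0.00205 and 0.00196), or by 7.91 and 4.75 with signals raised to 64. Ly9 and Cd84, both receptors of the SLAM family, rose from EBFko to Pax5ko by 1.18 ± 0.18 and 1.02 ± 0.14 (limma, adjusted p = 0.0132 and 0.00920). Ly9 then fell by 1.21 ± 0.18 from Pax5ko to RAG2ko (limma, adjusted p = 0.00766). These 3 calls were lost without the arrays numbered 3 (limma adjusted p = 0.132, 0.0946 and 0.0808), and the rise of Ly9 also without EBFko replicate 1 or Pax5ko replicate 1 or 2 (0.0501 to 0.0550). Cd180, a Toll-like receptor homologue of B cells, and Cd93, a marker of immature B cells in mouse, fell by 1.25 ± 0.17 and 1.20 ± 0.26 from Pax5ko to RAG2ko (limma, adjusted p = 0.00467 and 0.0275). The former held in all 21 fits, and the latter was lost without any 1 of the Pax5ko arrays or RAG2ko replicate 1 or 2 (limma adjusted p of 0.0749 to 0.0879).

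Among 18 transcription factors of the B lineage, 2 rose and 4 fell from EBFko to Pax5ko, 7 rose and 0 fell from Pax5ko to RAG2ko, and 7 rose and 3 fell from EBFko to RAG2ko, with medians of -0.12, 1.25 and 0.89. Falls from Pax5ko to RAG2ko also numbered 0 at an unadjusted p under 0.05 by limma. Without the arrays numbered 3 the counts were 2 and 2, 7 and 0, and 5 and 2. From EBFko to Pax5ko Irf8, an interferon regulatory factor, fell by 1.65 ± 0.24 and Id2, an inhibitor of E proteins, by 3.49 ± 0.30 (limma, adjusted p = 0.0103 and 0.00120). Lef1, Irf4 and Id3 rose from Pax5ko to RAG2ko by 5.02 ± 0.36, 3.04 ± 0.33 and 2.85 ± 0.31 (limma, adjusted p = 3.42e-04, 0.00193 and 0.00193), the direction of Cd22, Cd72 and Cd24a. Pou2af1, a coactivator of B cell transcription, instead rose by 8.97 ± 0.33 from EBFko to Pax5ko (limma, adjusted p = 3.44e-05), or by 6.96 with signals under 64 raised to 64.

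Foxo1 rose by 2.01 ± 0.22 from EBFko to Pax5ko (limma, adjusted p = 0.00342), in all 20 fits that tested it. Bach2, a repressor in B cells, fell from EBFko by 2.61 ± 0.42 to Pax5ko and by 2.07 ± 0.42 to RAG2ko (limma, adjusted p = 0.0153 and 0.0198), although 1 of its 2 probe sets differed the other way in the latter. Both Bach2 calls were lost without EBFko replicate 1 or 2, the former also without Pax5ko replicate 1 or 3 or the arrays numbered 3, and the latter also without RAG2ko replicate 1 or 2 (limma adjusted p of 0.0522 to 0.0646 and 0.0564 to 0.0680). Pou2af1, Lef1 and Id3 rose from EBFko to RAG2ko by 9.70, 5.41 and 3.50 (limma, adjusted p = 1.6e-05, 1.74e-04 and 6.08e-04). Pou2af1 (3.98) and Lef1 (5.90) were dim in EBFko, so these sizes rest partly on dim signal. Their lowest alternative values were 7.55 and 5.08. Ikzf1, which encodes Ikaros, fell by 1.20 ± 0.14 and Spi1, which encodes PU.1, by 0.85 ± 0.15 between these lines (limma, adjusted p = 0.00220 and 0.0128). The fall of Ikzf1 held in all 21 fits, while that of Spi1 was lost with median centring and without the arrays numbered 3 (limma adjusted p = 0.0811).

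**Figure D3:**
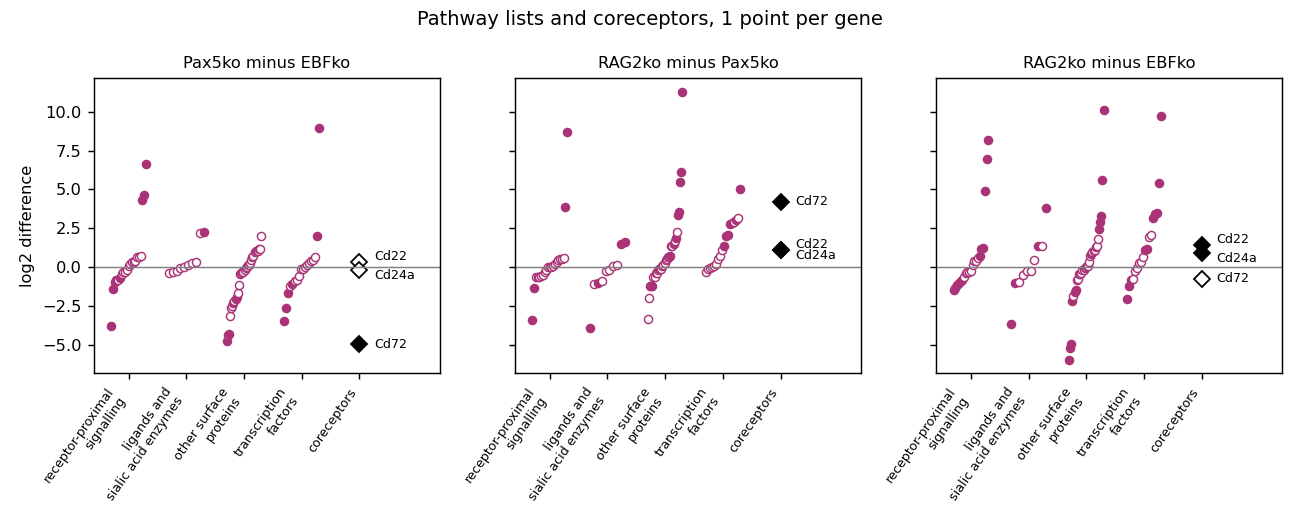
Log2 differences of the genes of 4 lists and of Cd22, Cd72 and Cd24a (diamonds), 1 point per gene taken from its brightest probe set, filled where the limma adjusted p is under 0.05. Cd72 at -4.98 lies farther from 0 than Fcgr2b at -4.33 in Pax5ko minus EBFko, and Cd22 at 1.11 and Cd24a at 1.12 lie close together in RAG2ko minus Pax5ko.

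The genes whose signal over the 9 arrays was most like that of each coreceptor were sought among 10703 to 10705 named probe sets with a log2 span of at least 1, as a description, since the arrays share lines. For Cd72 the closest were Syce2 (r = 0.986), Sorcs2 (0.977), Clta (0.976), Zfr (0.971) and Gcc1 (0.968). Syce2, a protein of the synaptonemal complex, averaged 11.70 in EBFko, 5.64 in Pax5ko and 11.00 in RAG2ko. Clta, a clathrin light chain, averaged 13.10, 10.67 and 12.58 in the same order. For Cd24a they were Phf10 (r = 0.989), Lrmp (0.987), Neil1 (0.985), Ebf1 (0.979) and Crip1 (0.978). Lrmp averaged 11.29, 11.12 and 13.05, and the Ebf1 probe set 1448293_at 9.53, 9.07 and 10.74. For Cd22 they were Rmnd1 (r = 0.980), Tlr4 (0.975), Spn (0.975), Ccny (0.967) and Spsb1 (0.966), of which Spn, the sialoprotein CD43, averaged 8.50, 8.62 and 9.32. No gene appeared in more than 1 of these sets of 5.

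**Figure D4:**
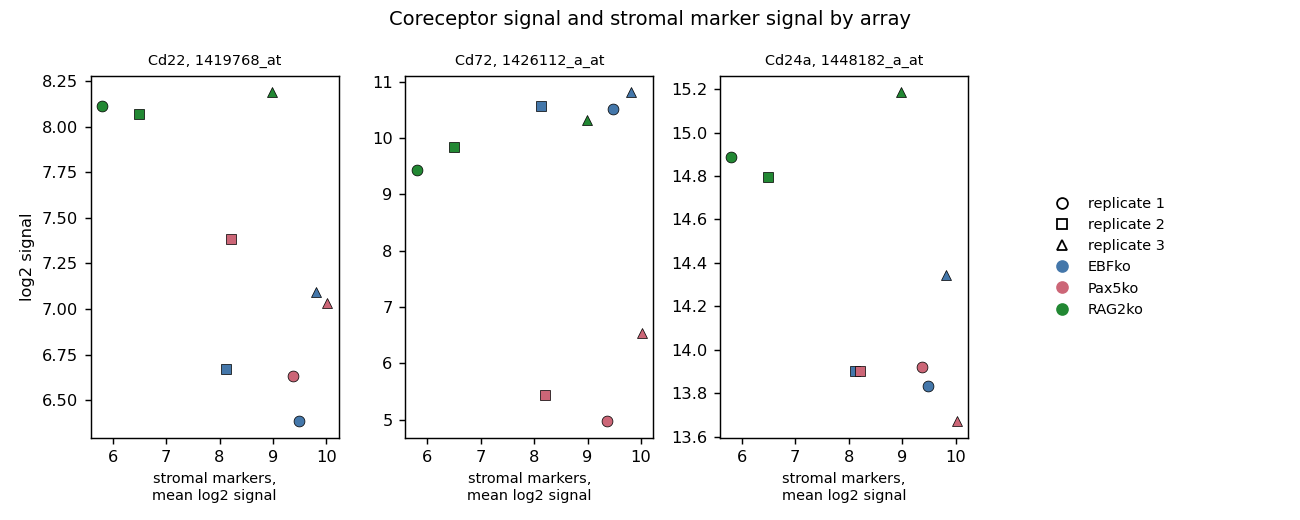
Log2 signal of Cd22, Cd72 and Cd24a on each array against the mean log2 signal of 18 stromal markers, by line (colour) and replicate (shape). RAG2ko replicates 1 and 2 lie at 5.80 and 6.49 on the stromal axis and replicate 3 at 8.99, and all 3 lie above the other lines for Cd22 and Cd24a, and the Pax5ko arrays lie lowest for Cd72 over a stromal range of 8.21 to 10.02.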

How the data were processed

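RNA from 9 samples of the 3 lines was hybridised to 1 array each. The authors' deposited matrix holds 1 linear intensity per probe set and array. The submitters' processing notes name GCRMA, but the values are not quantile normalized and the scaling step is not given in the sources used here. A deposited table per line holds a linear ratio against an unstated reference, with no replicates. Of 45101 probe sets, 64 controls were left out, and 18149 were named through RefSeq accessions, shared descriptions or older names. Intensities were log2 transformed and quantile normalized, and the 40928 probe sets above 4 on at least 3 of 9 arrays were fitted with limma 3.58.1 in R 4.3.3 over all 9 arrays, with the line as the only term and Benjamini-Hochberg adjustment. The number of arrays limits the precision. Array medians of the deposited signal were 73.4 to 97.6. No scan dates were in the labels. Named were all 6 probe sets and, per list and comparison, up to 3 called rises and 3 called falls with the largest difference, besides the 5 most alike genes. The genes and lists were chosen with earlier results of these data known. Alternatives covered normalization, filters, the floor of 64, the variance model, a replicate block, 6-array fits and left-out arrays.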

Additional observations from a re-analysis of the deposited data

How the results depend on the processing

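Of 261 alternative values for the differences of the 4 brighter probe sets, 224 stayed the same, 28 lost the call, 7 moved and 2 reversed. For a fit, the same means an unchanged direction and side of the threshold. The deposited ratios have no p-value. They were the same where they lay within the SD between arrays of the main difference, and moved where they did not. The Cd22 rise from Pax5ko to RAG2ko (1419768_at) gave 0.94 without quantile normalization, 0.93 with median centring, 1.07 without the arrays numbered 3, 0.91 to 1.29 with 1 array left out and 0.63 in the deposited ratios. It gave 1.11 with the replicate block (limma, adjusted p = 0.0512) and 1.11 on 6 arrays (0.0601). From EBFko it gave 1.54 without the arrays numbered 3, 0.78 in the ratios and 1.25 to 1.58 with 1 array left out. Cd72 gave -6.36, 5.19 and -1.17 in the ratios. Cd24a (1448182_a_at) from EBFko to Pax5ko reversed to 0.0178 with median centring and 0.0461 without the arrays numbered 3. From Pax5ko to RAG2ko it gave 0.94 without those arrays, 1.42 in the ratios and 1.0 to 1.20 with 1 array left out, and from EBFko 0.93 with the replicate block (limma, adjusted p = 0.0538) and on 6 arrays (0.0723), and 0.81 to 1.10. Cd24a (1416034_at) gave 1.76 in the ratios, and from EBFko 0.96 on 6 arrays (0.101) and 0.81 to 1.20. Whether the replicate numbers pair the samples is not settled. Deviations from the line means correlated at -0.0062 to 0.1137 between same-number arrays of different lines, and at -0.1193 to 0.0706 between the others. For numbers 2 and 3 the same-number values were all positive (0.039 to 0.1137). Those between a number 2 and a number 3 array were all negative (-0.1193 to -0.0324). Deviations from a line mean cancel out within the line, so positive values force negative ones elsewhere. The negative values are therefore not a separate observation. The dim Cd22 probe sets reversed: 1445222_at gave -0.0207 (Pax5ko minus EBFko) and -0.0207 (RAG2ko minus EBFko) with signals under 64 raised to 64, with ranges of -0.22 to 2.07 and -0.37 to 1.92, and 0.0225 and 0.0070 (RAG2ko minus Pax5ko) without quantile normalization and with median centring, with a range of -0.46 to 0.19. 1419769_at gave -0.0895 (Pax5ko minus EBFko) without quantile normalization and -0.57 to 1.42. Over all probe sets, 1080 rose and 1055 fell from EBFko to Pax5ko, against 2118 and 2257 with signals under 64 raised to 64, 1614 and 1650 with a filter at 6, 1895 and 1922 with a trended, robust variance, 1693 and 1704 with array weights, 632 and 590 with the replicate block and 477 and 522 with 1 probe set per gene. With 1 array left out these were 471 to 1280 and 440 to 1266. From Pax5ko to RAG2ko 2040 rose and 2020 fell, against 3741 and 3048 with signals raised to 64, 3181 and 3091 with the trended variance, 1332 rises with median centring, 1273 rises on 6 arrays and 919 and 761 with 1 probe set per gene. From EBFko to RAG2ko 2623 rose and 2550 fell, against 4068 rises with signals raised to 64, 1561 and 1610 on 6 arrays and 1057 and 993 with 1 probe set per gene. Without the arrays numbered 3 the rises in these comparisons numbered 396, 787 and 1301. From EBFko to RAG2ko 50.7% of calls were rises, and 40.4% without quantile normalization, while median centring moved the median of all to 0.12. The causes were not tested.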

Other observations

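Genes next to Cd22, Cd72 and Cd24a were read as well, 3 measured genes to each side, chosen after their values were seen. Beside Cd72, Sit1, which encodes a transmembrane adaptor of lymphocytes, averaged 5.09 in EBFko, 6.34 in Pax5ko and 10.08 in RAG2ko. It rose by 3.73 ± 0.32 from Pax5ko and by 4.99 ± 0.32 from EBFko to RAG2ko (limma, adjusted p = 7.41e-04 and 1.41e-04), whereas Cd72 was bright in EBFko. Near Cd24a, Mtres1 rose by 0.84 ± 0.18 from Pax5ko and by 1.50 ± 0.18 from EBFko to RAG2ko (limma, adjusted p = 0.0272 and 0.00213). On the same side of Cd72, Tpm2, a tropomyosin, averaged 11.14 in EBFko, 9.35 in Pax5ko and 7.36 in RAG2ko. It fell by 3.78 ± 0.69 from EBFko to RAG2ko (limma, adjusted p = 0.0126). The 18 stromal markers had a median difference of -2.51 in that comparison. Whether the fall of Tpm2 goes with them was not tested. Alternative fits were not read for these neighbouring genes.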
